A study of Mus musculus with 22 samples.

Results

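Cultured chondrocytes with a conditional deletion of Dnmt1 in the limb lineage were compared after 3 days with BMP2 and before it, by RNA sequencing of 7 cultures out of the 14 chondrocyte cultures and 22 samples of the series. The members are the 3 conditional knockout cultures labelled day 0 and the 4 labelled day 3, taken by genotype and day from the labels. All cultures came from knee articular cartilage of mice at postnatal days 3 to 5, grown as primary chondrocytes in DMEM Glutamax with 10% fetal bovine serum. The knockout cultures (cKO) carry Prrx1-Cre together with Dnmt1 flox/flox, and the 7 control cultures, 3 at day 0 and 4 at day 3, are labelled Dnmt1 flox without a Cre. Day 3 cultures had received BMP2 at 100 ng/µl as the labels write it, and day 0 cultures had received none.

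The Prrx1 enhancer drives Cre in limb bud mesenchyme, from which cartilage, bone, tendon and connective tissue of the limb arise, so that the deletion is aimed at that lineage. Time in culture, BMP2 and the deposited table all change together between day 0 and day 3, and their shares in any difference cannot be told apart. The labels give no litter, sex or culture batch, so the p-values measure the spread between these cultures only. In bulk RNA, fewer cells of a type and less RNA per cell cannot be told apart.

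Dnmt1 copies DNA methylation onto the new strand when a cell divides, and its loss leaves daughter cells with less methylation. BMP2 binds receptor kinases that activate Smad transcription factors. In cartilage it promotes chondrocyte differentiation and hypertrophy, the step in which chondrocytes enlarge, switch from type II to type X collagen and prepare the matrix for mineral. Cells answer BMP with genes such as those of the Id family and with secreted antagonists, the gremlins and noggin, that limit the signal.

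Levels are in CPM, the count of a gene relative to the size of its library after adjustment by the trimmed mean of M-values (TMM). A change is the log2 fold change of day 3 over day 0 from edgeR's quasi-likelihood test on all 14 cultures, with its standard error (SE). A gene is said to have risen or fallen at a Benjamini-Hochberg adjusted p under 0.05 over the 14909 genes tested. The difference between genotypes is the cKO change minus the control change, tested as an interaction in the same fit.

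Total counts were 41749327 to 51741478 per cKO library at day 0 and 16328692 to 18918714 at day 3, and the control libraries showed the same gap, with 46911436 to 50701451 at day 0 and 14434197 to 18503545 at day 3. cKO day 3 replicate 4 stood apart from the other 3 day 3 cKO libraries. In it 541 genes lay more than 1 log2 unit above all 3 others and 832 more than 1 below, against 6 to 11 and 12 to 31 genes for each of the others. Its log-level correlation across genes with those libraries was 0.942 to 0.950, and theirs with each other reached 0.991. Results that rest on it are given with and without it.

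Dnmt1 (ENSMUSG00000004099.16, GRCm38 chr9:20907209-20959888, minus strand) was measured first as a check of the labels. Its level was 27.4, 26.8 and 32.8 CPM in the cKO cultures at day 0 and 34.3, 35.6, 22.2 and 10.9 CPM at day 3. The control cultures held 166, 153 and 154 CPM at day 0 and 81.5, 63.3, 63.9 and 67.3 CPM at day 3. Every cKO library lay below every control library, which fits the labels, and transcript remained in all 7 cKO cultures. The files do not say which exons were floxed, so counts outside the deleted stretch may be included. Within the cKO cultures Dnmt1 did not pass the test, with a log2 fold change of -0.17 ± 0.28 (SE, adjusted p = 0.62), or 0.08 without replicate 4 (adjusted p = 0.637). In the control cultures it fell by 1.19 on the log2 scale (adjusted p = 0.00229).

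The labelled cell type was checked against chondrocyte markers. The summed level of 6 such markers (Col2a1, Acan and others) was 46820, 56790 and 48490 CPM in the cKO cultures at day 0, below the 131900, 124700 and 130200 CPM of the controls. At day 3 it was 13790, 10270, 14650 and 917 CPM in the cKO and 90600, 90500, 79030 and 97550 CPM in the control cultures. The cultures thus carried the defining genes of cartilage at day 0. By day 3 the cKO sum, most of which was Col2a1, had dropped, furthest in replicate 4. Of the 6 markers 5 fell and none rose in the cKO cultures with all libraries. Without replicate 4, 5 fell and 1 rose.

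Between day 0 and day 3, 4830 genes rose and 4444 fell in the cKO cultures, which is 32.4% and 29.8% of the genes tested. Of these, 2128 rose and 1277 fell by more than 1 log2 unit. Without replicate 4, 5116 rose and 4846 fell (34.5% and 32.7% of 14833), and 8914 of the 9226 called genes that were tested in both fits kept the call and direction. In the controls 4183 genes rose and 4293 fell, 28.1% and 28.8%. With so many calls, a share of a gene list near these percentages is no result about the list. Without replicate 4 the interaction was called higher for 2326 and lower for 1725 of 14833 genes, the background for list counts of that fit.

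**Figure D1:**
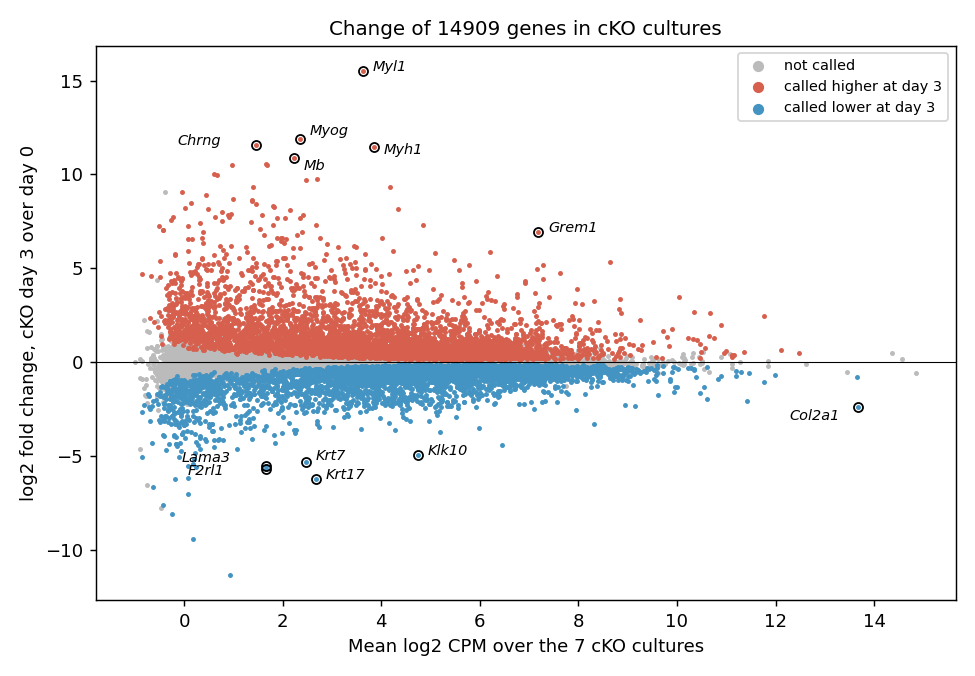
Each point is 1 of the 14909 genes tested, with its mean log2 CPM over the 7 cKO cultures on the horizontal axis and its log2 fold change, day 3 over day 0, on the vertical axis. Red and blue points passed the test. Circled muscle genes (Myl1, Myog, Myh1, Chrng, Mb) lie at the top, the BMP antagonist Grem1 is at 6.94, and Col2a1 is among the most abundant genes that fell.

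The genes that rose most in the cKO cultures, under the rule on level, separation of the days and replicate 4 given in the account of the processing, were skeletal muscle genes. They were Myl1 (a fast myosin light chain), Myog (myogenin, the transcription factor that starts terminal muscle differentiation), Chrng (the embryonic subunit of the acetylcholine receptor), Myh1 (a fast myosin heavy chain) and Mb (myoglobin). Myog (ENSMUSG00000026459.5, GRCm38 chr1:134289989-134292548, plus strand) stood at 0.024, 0 and 0 CPM at day 0 and 42.4, 61.7, 68.7 and 3.17 CPM at day 3. Day 0 is a single count over the 3 libraries, and day 3 is 3373 counts over 4, so that the ratio of 6010 has a 95% counting interval of 1079 to 237400. Replicate 4 was the lowest of the day 3 cultures. No culture overlapped day 0, which the rule requires of the genes it names.

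Myl1 had no count in any cKO library at day 0 and stood at 202, 246, 321 and 21.4 CPM at day 3. Against a floor of 3 counts over the day 0 group it was at least 8998-fold higher, and at least 11670-fold without replicate 4. Chrng, also without a count at day 0, was at 13.7, 16.1, 19.7 and 1.56 CPM and at least 582-fold higher. In the control cultures none of these 3 genes exceeded 0.0685 CPM on either day. With all libraries the interaction was not called for Myog, Myl1 or Chrng, nor for Mb (adjusted p = 0.223). Without replicate 4 it was called, with adjusted p of 0.0401, 0.0345, 0.00162 and 0.00817 in that order. DESeq2 called all of them with all libraries.

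The promoters of Chrng and of Mylpf, a fast myosin regulatory light chain, are shown because they hold the E-box CAGCTG, a motif that myogenic factors such as MyoD and myogenin are known to bind, in front of genes that went from near 0 to high levels. The sequences are the 200 bases before the RefSeq gene start (GRCm38.p6), 5′ to 3′ on the gene's strand, with the E-box in capitals. Chrng lies at chr1:87205611-87205810 on the plus strand and Mylpf at chr7:127211408-127211607 on the plus strand.
Chrng: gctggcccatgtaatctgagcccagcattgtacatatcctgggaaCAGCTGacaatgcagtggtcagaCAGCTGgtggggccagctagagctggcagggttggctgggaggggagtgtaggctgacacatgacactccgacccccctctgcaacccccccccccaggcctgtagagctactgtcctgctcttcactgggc
Mylpf: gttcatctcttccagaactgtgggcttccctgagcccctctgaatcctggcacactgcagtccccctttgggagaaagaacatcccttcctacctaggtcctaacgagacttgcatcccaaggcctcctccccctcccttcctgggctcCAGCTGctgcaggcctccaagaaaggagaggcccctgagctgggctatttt

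The E-boxes begin 155 and 132 bases before the start of Chrng and 51 bases before that of Mylpf. CAGCTG reads the same on both strands. In windows of 300 bases (250 before to 50 after the start) it was found in 12 of 29 promoters of the sarcomere list (41.4%) and in 9 of 15 of the neuromuscular junction and calcium release list (60%). None of the 10 promoters of the myogenic regulator list held it, and 16.3% of all 32851 RefSeq mouse promoters did. The matches are letters in a window and were not tested as binding sites.

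Skeletal muscle forms when MyoD-family factors commit precursor cells, which then leave the cell cycle, fuse and build sarcomeres. Of the regulators, Myod1, which marks committed myoblasts, was already at 13.8, 8.27 and 12.1 CPM in the cKO cultures at day 0 and at 25.1, 37.0, 45.7 and 6.8 CPM at day 3. Controls held 0, 0 and 0 and 0.137, 0, 0.0601 and 0 CPM. Every cKO culture thus lay above every control culture in Myod1, also before BMP2 was added. Its rise of 1.33 ± 0.49 (SE, adjusted p = 0.0345) was 1.66 without replicate 4 (adjusted p = 5.59e-05). It missed the threshold when any of the 3 day 0 cKO libraries, or day 3 replicate 2 or 3, was left out, with adjusted p up to 0.12.

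Mymk and Mymx encode the membrane proteins that fuse myoblasts. Mymk was at 0.144, 0.161 and 0.0194 CPM at day 0 and 28.5, 38.8, 47.6 and 2.31 CPM at day 3, a log2 fold change of 8.09 ± 0.99 (SE, adjusted p = 1.59e-05), while the controls stayed between 0.137 and 0.393 CPM. Its change exceeded that of the controls by 8.43 ± 1.53 (SE, adjusted p = 0.00304). Mymx had 1 count over the day 0 libraries and reached 3.21, 5.28, 4.49 and 0.231 CPM. Cdh15, the cadherin of satellite cells and myoblasts, went from 1.32, 1.31 and 1.3 to 6.86, 11.5, 14.2 and 1.85 CPM, a log2 fold change of 2.71 ± 0.57 (SE, adjusted p = 0.00104), and Itga7, the laminin receptor of muscle fibres, from 8.12, 6.06 and 4.77 to 39.9, 41.4, 52.8 and 21.1 CPM, a log2 fold change of 2.62 ± 0.28 (SE, adjusted p = 5.28e-06). For these 4 genes replicate 4 was the lowest of the day 3 cultures and still lay above day 0.

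Of the 14 myogenic regulators and fusion genes, 10 passed the filter on low counts, 8 rose and none fell, with a median log2 fold change of 2.44. Only 5 rose when the fit held the 7 cKO libraries alone, and 5 without day 3 replicate 2. Without replicate 4, 9 of 9 tested rose, with a median of 2.83. Members near 0 at day 0, such as Myog and Mymx, passed the filter through their day 3 cKO libraries alone. The share of tested members that rose is thus partly set by the filter. The remaining 4 listed genes (Pax7, Myf5, Myf6 and Vgll2) had at most 22 counts in any cKO library and were not tested. Pax3, a factor of muscle precursors and other lineages, rested on replicate 4, which held 3.63 CPM against 0.313 to 0.889 CPM in the other 3 day 3 cultures, and without it the gene fell below the filter. The rise of Pax3 also missed the threshold without any 1 of the day 0 cKO libraries (adjusted p up to 0.0702).

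Of 31 sarcomere and muscle fibre genes, all tested, 30 rose and none fell in the cKO cultures (background 32.4% rising), with a median log2 fold change of 5.93, or 6.32 without replicate 4. Setting Myl1 at its lower bound left the median at 5.93. In 25 of the 31 the day 0 and day 3 cultures did not overlap, against 62.5% of all genes tested, and in 30 of 31 without replicate 4. The control cultures had 1 of these genes rise and 4 fall, with a median of -0.53. The interaction was called higher for 21 of 31 genes and lower for none, where 9.94% and 6.89% of all genes were called higher and lower, and for 30 of 31 without replicate 4.

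Myh3, embryonic myosin heavy chain (ENSMUSG00000020908.14, GRCm38 chr11:67078300-67102291, plus strand), was at 1.06, 0.758 and 0.737 CPM at day 0 and 229, 344, 392 and 18.1 CPM at day 3, a log2 fold change of 8.18 ± 0.92 (SE, adjusted p = 7.95e-06). The interaction of Myh3 was not called with all libraries (adjusted p = 0.0924) and was without replicate 4 (adjusted p = 0.000183). Mylpf went from 0.408, 0.39 and 0.369 to 258, 306, 401 and 27.4 CPM, and Acta1, skeletal muscle actin, from 15.8, 14.4 and 17.7 to 365, 485, 636 and 48.3 CPM. Replicates 1 to 3 were high for these genes and replicate 4 was far lower, yet above every day 0 library.

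The log2 fold change was 9.31 ± 0.88 (SE, adjusted p = 2e-06) for Mylpf and 4.59 ± 0.63 (SE, adjusted p = 4.34e-05) for Acta1. In the control cultures Acta1 went the other way, from 5.29, 5.09 and 4.83 to 0.754, 0.706, 0.48 and 0.923 CPM, and the interaction was 7.41 ± 0.97 (SE, adjusted p = 0.00044). Mylpf in the controls was 0.634, 0.359 and 0.554 CPM at day 0 and 0.343, 0.706, 0.54 and 0.593 CPM at day 3, and its interaction was 9.20 ± 1.45 (SE, adjusted p = 0.0013). Tnnc2, the calcium sensor of fast fibres, reached 58.6, 80.9, 101 and 5.02 CPM from at most 0.0961 CPM, and its interaction was not called (adjusted p = 0.582). Ckm, muscle creatine kinase, went from 0.192, 0.367 and 0.291 to 4.44, 4.94, 7.2 and 0.288 CPM, with replicate 4 within the day 0 range. Myom1, an M-band protein of the sarcomere, was the exception of the list, at 33.2, 44.4 and 43.1 CPM on day 0 and 25.0, 33.6, 41.9 and 30.8 CPM on day 3 in the cKO cultures (adjusted p = 0.22), while it fell in the controls by 1.93 on the log2 scale (adjusted p = 5.21e-06).

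**Figure D2:**
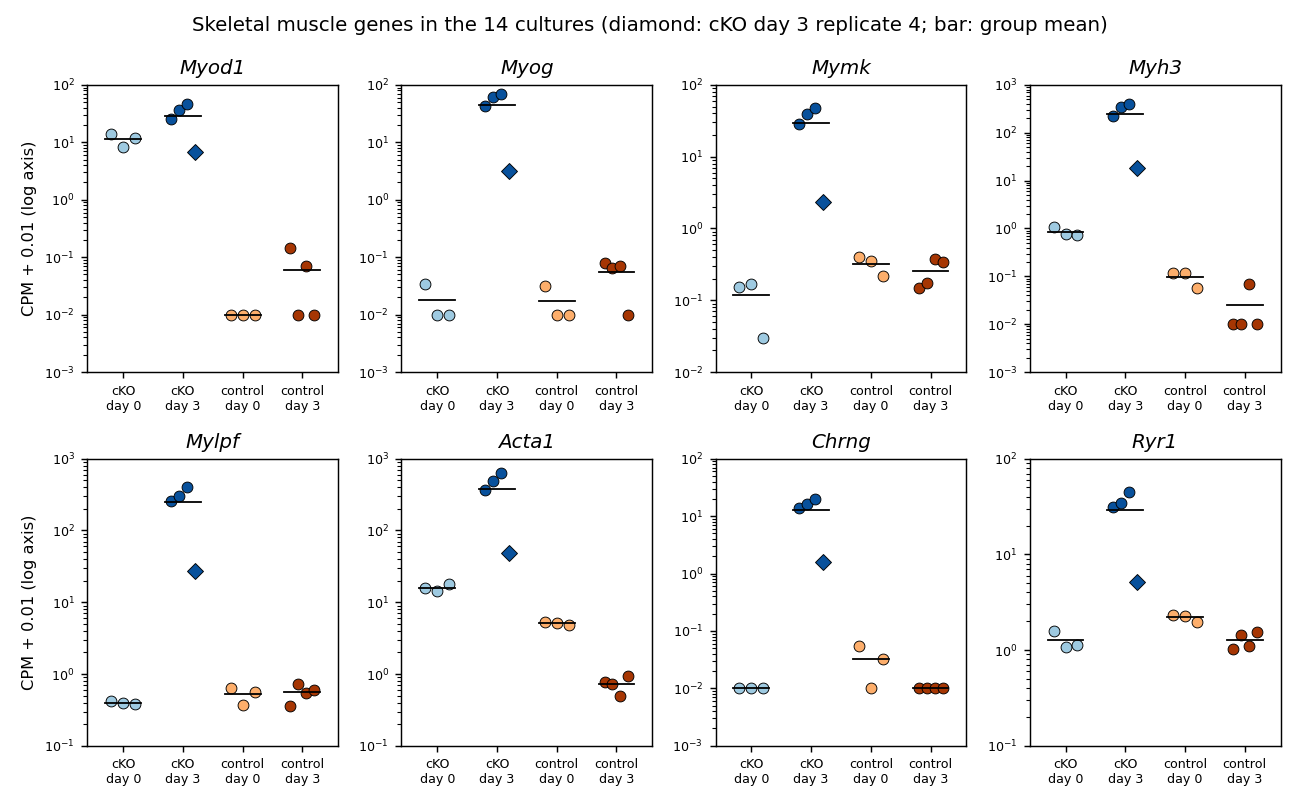
CPM plus 0.01 on a log axis for 8 skeletal muscle genes in each of the 14 cultures, with cKO in blue, control in orange, a bar at each group mean and a diamond for cKO day 3 replicate 4. Points at 0.01 are libraries without a count. For all 8 genes cKO day 3 replicates 1 to 3 lie above every other culture, and for Myod1 replicate 4 lies below the day 0 cKO cultures.

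Of 20 genes of the neuromuscular junction and of calcium release, 18 were tested, 17 rose and none fell, with a median of 4.63 that did not move with Chrng at its bound, and 18 of 18 rose without replicate 4. Members without counts at day 0, such as Chrng, passed the filter through day 3 cKO libraries alone. Listed genes below the filter are not in these counts, so the share that rose is partly set by it. Ryr1, the calcium release channel, was at 1.59, 1.08 and 1.13 CPM at day 0 and 31.4, 34.5, 44.7 and 5.13 CPM at day 3, a log2 fold change of 4.52 ± 0.56 (SE, adjusted p = 1.91e-05). Its interaction was 5.31 ± 0.76 (SE, adjusted p = 0.000775). Cacng1, a subunit of the muscle calcium channel, went from 0.0481, 0 and 0 to 11, 17.0, 19.6 and 1.15 CPM, and Chrnd, the delta subunit of the acetylcholine receptor, from 0.024, 0 and 0.0194 to 4.44, 7.21, 6.57 and 0.692 CPM. A higher interaction was called for 11 of the 18 and a lower for none. Those of Cacng1 (adjusted p = 0.345) and Chrnd were not called, and that of Chrnd was called without replicate 4 (adjusted p = 0.0105).

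The genes with the largest positive interaction were Myh2 (a fast myosin heavy chain), Myh1, Mybpc1 (slow myosin-binding protein C), Xirp2 (a protein of the intercalated and myotendinous junction) and Trim72 (a membrane repair protein). Xirp2 went from 6.66, 5.21 and 5.43 to 27.5, 29.1, 40.0 and 3.92 CPM in the cKO cultures, with replicate 4 below day 0, and from 1.75, 1.58 and 1.34 CPM to 0 in all 4 controls. Myh1 was at 0.0961, 0.115 and 0.0194 and 244, 257, 343 and 31.7 CPM, and Myh2 at 0, 0.023 and 0 and 15.8, 17.4, 30.5 and 2.36 CPM, in the cKO cultures. Trim72 went from 0.336, 0.184 and 0.291 to 29.8, 42.0, 45.4 and 1.96 CPM, and Mybpc1 from 0.216, 0.0689 and 0.116 to 14.7, 17.3, 27.5 and 0.865 CPM. Myh2, Mybpc1 and Xirp2 had no count in any control library at day 3, so the fitted sizes of their interactions depend on how a group at 0 is treated and are not bounds. The interaction of Myh1 missed the threshold without any 1 of the control day 0 libraries (adjusted p up to 0.102), and that of Myh2 without cKO day 0 replicate 2 or control day 0 replicate 1 (up to 0.323). That of Mybpc1 missed it without cKO day 0 replicate 2 or 3 or any 1 of the control day 0 libraries (up to 0.123). That of Trim72 missed it without control day 0 replicate 1 or 2 or control day 3 replicate 1 (up to 0.106). With day 0 counts thinned to the depth of day 3 the call was missed for 4 of the 5, at log2 differences of 12.07 for Myh1 (adjusted p = 0.298), 12.89 for Myh2 (0.0695), 9.77 for Mybpc1 (0.207) and 8.24 for Trim72 (0.241).

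The marker lists for other cell types were read beside the muscle result. The 7 skeletal muscle markers summed to 55.9, 56.0 and 53.7 CPM in the cKO cultures at day 0 against 13.2, 11.4 and 11.7 CPM in the controls, and to 1053, 1414, 1759 and 116 against 2.06, 2.33, 1.68 and 1.85 CPM at day 3. All 7 were detected, and all 7 rose in the cKO cultures. Whether the muscle transcripts come from cells of the muscle lineage carried in the cultures or from other cells was not tested. The 7 endothelial markers summed to 4.06 to 4.33 CPM at day 0 and 2.13 to 2.51 at day 3 in the cKO cultures. The 4 erythroid markers were at or near 0, and Hbb-bs and Hba-a1 had no count in any cKO library. Smooth muscle markers, 4 genes, summed to 1212, 1217 and 1468 CPM at day 0 and 509, 626, 527 and 2417 CPM at day 3, so that replicate 4 was above day 0 and the other 3 below it.

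Of 20 cartilage matrix genes, all tested, 12 fell and 3 rose (background 29.8% falling), with a median of -1.85, and 13 fell and 3 rose without replicate 4, with a median of -1.47. A fit on the 7 cKO libraries alone called 6 lower. In the controls 2 fell and 3 rose, with a median of -0.54. The interaction was called lower for 2 of 20 with all libraries (background 6.89%). Without replicate 4 it was called lower for 9 (background 1725 of 14833 genes) and higher for 2.

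Col2a1, type II collagen (ENSMUSG00000022483.17, GRCm38 chr15:97975602-98004695, minus strand), was at 40179, 48300 and 41532 CPM at day 0 and 11295, 8399, 12108 and 705 CPM at day 3. All 4 day 3 cultures lay below day 0, and replicate 4 lay far below the other 3. The log2 fold change was -2.41 ± 0.60 (SE, adjusted p = 0.00344) and -2.03 without replicate 4 (adjusted p = 6.69e-07). In the controls Col2a1 was at 105795, 99891 and 104899 CPM and 71938, 72400, 66066 and 75929 CPM (adjusted p = 0.464). The interaction was -1.88 ± 0.84 (SE, adjusted p = 0.149), and without replicate 4 it was -1.5 (adjusted p = 0.000807), so that the difference was called only without replicate 4.

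Acan, the large aggregating proteoglycan, went from 3712, 4620 and 3994 to 1442, 1111, 1512 and 138 CPM, a log2 fold change of -1.97 ± 0.52 (SE, adjusted p = 0.00521). Hapln1, the link protein that ties it to hyaluronan, went from 752, 878 and 754 to 189, 128, 196 and 23.4 CPM (log2 fold change -2.56 ± 0.47 SE, adjusted p = 0.000385). Matn3, a matrilin, fell from 96.1, 135 and 86.3 to 15.8, 13.6, 17.4 and 0.461 CPM (log2 fold change -3.16 ± 0.57 SE, adjusted p = 0.000353) and fell in the controls too, by 4.12 on the log2 scale (adjusted p = 5.47e-05). Chad, chondroadherin, went from 17.8, 18.2 and 29.5 to 4.39, 3.8, 3.7 and 2.65 CPM (log2 fold change -2.58 ± 0.20 SE, adjusted p = 4.27e-07) and differed from the controls by -2.38 ± 0.28 (SE, adjusted p = 0.000206). For Chad the 4 day 3 cultures lay close together and below day 0, so its fall did not rest on replicate 4.

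Members that rose were Matn4, a matrilin, and Fmod (fibromodulin) and Prelp, small leucine-rich proteins that bind collagen. Fmod went from 468, 568 and 423 to 1694, 1979, 2037 and 934 CPM and Prelp from 190.2, 171 and 166 to 294, 377, 389.6 and 332 CPM. Matn4 went from 8.53, 9.21 and 6.75 to 62.6, 31.6, 43.8 and 6.69 CPM, where replicate 4 lay below day 0. All 3 also rose in the controls, and their interactions were not called (adjusted p = 0.971, 0.267 and 0.809), although that of Fmod was without replicate 4 (0.74, adjusted p = 0.00846).

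No cartilage transcription factor rose with all libraries kept: of 12 listed, 11 were tested and 7 fell. Sox9, which drives Col2a1 and Acan, stood at 177, 185 and 157 CPM at day 0 and 225, 181, 213 and 34.2 CPM at day 3. Its log2 fold change was -0.08 ± 0.41 (SE, adjusted p = 0.874), and without replicate 4 it was 0.26 (adjusted p = 0.0178), a rise. Thus 2 of the 11 rose and 6 fell without replicate 4. Foxa2, a factor of hypertrophic chondrocytes, went from 7.66, 8.82 and 9.9 to 0.506, 0.395, 0.47 and 0.634 CPM (log2 fold change -4.13 ± 0.36 SE, adjusted p = 1.01e-06), and Sox8 from 13.8, 15.6 and 11.1 to 2.59, 1.93, 2.92 and 3.81 CPM (log2 fold change -2.27 ± 0.25 SE, adjusted p = 6.16e-06). Both fell in the controls as well.

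Replicate 4 was most separated from the other 3 day 3 cultures in Cnmd (chondromodulin, a cartilage inhibitor of vessel growth), Msmp, C4b (a complement component), Matn1 and Col9a2. Cnmd was 773, 545 and 817 CPM in replicates 1 to 3 and 3.4 CPM in replicate 4. C4b was 511, 357 and 445 against 6.34 CPM, and Col9a2, a chain of type IX collagen, 316, 237 and 291 against 6.52 CPM. Matn1 and Msmp had no count in replicate 4, with 50.3, 22.3 and 56.9 and 71.3, 37.3 and 54.8 CPM in the others. At day 0 the cKO cultures held 664, 932 and 699 CPM of Cnmd. These genes were chosen for this separation, which is a description.

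**Figure D3:**
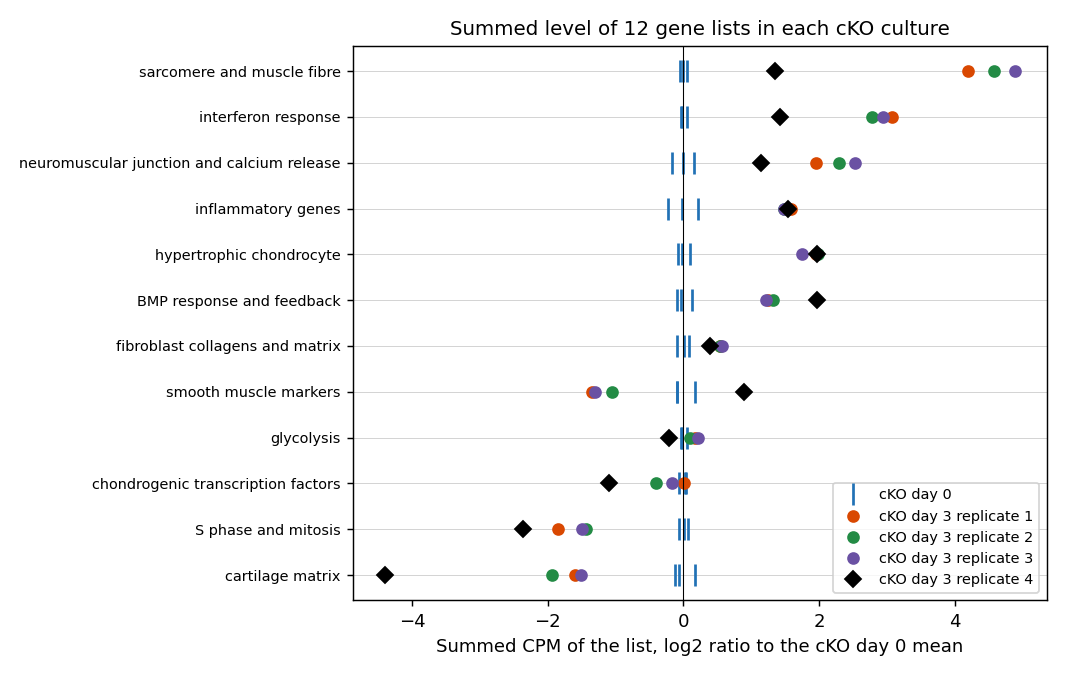
Summed CPM of 12 gene lists in each cKO culture, as the log2 ratio to the mean of the 3 day 0 cultures, with ticks for day 0, circles for day 3 replicates 1 to 3 and a black diamond for replicate 4. Replicate 4 is the lowest day 3 culture in the cartilage, sarcomere, junction and interferon lists and the highest in the smooth muscle and BMP response lists.

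Col10a1, type X collagen (ENSMUSG00000039462.4, GRCm38 chr10:34389981-34397085, plus strand), was at 588, 725 and 772 CPM at day 0 and 56.1, 101, 68.9 and 1392 CPM at day 3. Replicates 1 to 3 were low and replicate 4 was above every day 0 culture. The log2 fold change was -0.78 ± 0.90 (SE, adjusted p = 0.469) with all 4 and -3.20 without replicate 4 (adjusted p = 2.15e-06). In the controls Col10a1 fell from 1219, 1179 and 1182 to 77.9, 24.7, 40.2 and 28.8 CPM (adjusted p = 0.00125). Ihh, the hedgehog ligand of prehypertrophic cells, was low throughout, at 1.13, 0.873 and 0.854 CPM and 1.35, 1.28, 1.3 and 0.461 CPM (adjusted p = 0.566).

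Spp1, osteopontin, went from 385, 205 and 227 to 3728, 3354, 3058 and 2075 CPM, a log2 fold change of 3.49 ± 0.35 (SE, adjusted p = 3.09e-06). Alpl, the phosphatase that frees phosphate for mineral, went from 44.9, 21.4 and 15.2 to 254, 383, 272 and 428 CPM (log2 fold change 3.62 ± 0.39 SE, adjusted p = 6.31e-06). Every day 3 cKO culture was above every day 0 culture for Spp1 and Alpl. Mmp13, the collagenase that opens hypertrophic matrix, went from 59.1, 11.2 and 4.95 to 626, 876, 532 and 1073 CPM (log2 fold change 4.96 ± 0.79 SE, adjusted p = 0.000136). Day 0 replicate 1 held the most Mmp13 of day 0, and the log2 fold change was 6.59 without it.

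Ibsp, bone sialoprotein, went from 15.9, 1.19 and 0.407 to 239, 290.1, 255 and 21.9 CPM (log2 fold change 5.13 ± 1.11 SE, adjusted p = 0.00134), with replicate 1 the highest of day 0 and replicate 4 the lowest of day 3. Without day 0 replicate 1 the log2 fold change of Ibsp was 7.998. Vegfa, the signal that draws vessels into cartilage, went from 65.1, 72.0 and 64.0 to 152, 147, 143 and 144 CPM (log2 fold change 1.13 ± 0.08 SE, adjusted p = 1.89e-07), while it fell from 105, 111 and 111 to 66.7, 69.1, 56.9 and 74.2 CPM in the controls. The changes of the genotypes differed by 1.83 ± 0.11 (SE, adjusted p = 4.88e-06) for Vegfa, 3.30 ± 0.50 (SE, adjusted p = 0.00104) for Alpl and 2.53 ± 0.44 (SE, adjusted p = 0.0022) for Spp1. In the controls Alpl was at 31.9, 37.9 and 41.3 and 49.3, 28.5, 40.5 and 67.5 CPM (adjusted p = 0.452), and Spp1 at 148, 135 and 130.3 and 304, 161, 403 and 202 CPM, a rise of 0.95 (adjusted p = 0.0185).

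Of 14 hypertrophic genes, 8 rose and 1 fell in the cKO cultures (background 32.4% and 29.8%, controls 5 and 3), with a median of 0.50. Without replicate 4 the counts were 9 and 2. Of the 14 interactions 5 were called higher and none lower. Of 13 tested osteoblast and mineralization genes, 7 rose and 2 fell (controls 5 and 1), with a median of 1.38, or 0.89 without replicate 4, and the interaction was called for 1. Only 1 fell without day 0 replicate 1 or 3 or day 3 replicate 1 or 3, and 0 without day 3 replicate 2. Among them Sp7, osterix, the factor of bone-forming cells, went from 21.2, 12.9 and 14 to 55.3, 85.3, 66.7 and 118 CPM (log2 fold change 2.34 ± 0.28 SE, adjusted p = 1.5e-05). Bglap2, an osteocalcin gene, went from 0.529, 0.138 and 0.0582 to 7.88, 7.41, 13.3 and 7.38 CPM (log2 fold change 5.24 ± 0.62 SE, adjusted p = 1.23e-05), and Bglap2 also rose in the controls by 4.27 (adjusted p = 0.000157). The log2 fold change of Bglap2 was 6.49 without cKO day 0 replicate 1. Bglap and Bglap2 are near-identical copies whose reads the authors' counting may split, so the single gene values are uncertain.

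Chondrocytes time hypertrophy through a loop of hedgehog and PTHrP signals. Of 9 tested genes of the loop 5 fell and 1 rose (background 29.8% and 32.4%, controls 2 and 0). The rise was missed in 7 of the 14 fits that left out 1 library, those without cKO day 0 replicate 2 or 3, cKO day 3 replicate 1 or 2 or any control day 0 library. Hhip, a hedgehog antagonist that the pathway itself induces, went from 3.15, 2.96 and 2.37 to 0.169, 0.0987, 0.157 and 0 CPM (log2 fold change -4.67 ± 0.62 SE, adjusted p = 3.13e-05), and it fell in the controls by 3.86 on the log2 scale (adjusted p = 6.38e-05). Ptch1, the receptor and another target of the pathway, went from 112, 112 and 116 to 72.5, 69.9, 66.3 and 82.6 CPM (log2 fold change -0.64 ± 0.12 SE, adjusted p = 0.000404).

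Among the BMP response and feedback genes, the secreted antagonist Grem1, gremlin, was at 7.95, 9.26 and 10.4 CPM at day 0 and 1021, 991, 960.5 and 1563 CPM at day 3. All 4 day 3 cultures were far above day 0, and replicate 4 was the highest. The log2 fold change was 6.94 ± 0.25 (SE, adjusted p = 1.9e-09). Grem1 also rose in the controls, from 16.0, 19 and 21.6 to 1644, 2210, 2314 and 1837 CPM, with an interaction of 0.21 ± 0.26 (SE, adjusted p = 0.63) that was not called. Nog, noggin, fell from 41.4, 46.7 and 51.5 to 22.4, 29.0, 26.5 and 40.4 CPM (log2 fold change -0.65 ± 0.21 SE, adjusted p = 0.015), a call that was missed without cKO day 0 replicate 3 (adjusted p = 0.0576).

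Of the Id genes, Id1 and Id2 fell and Id3 rose. Id1 (ENSMUSG00000042745.9, GRCm38 chr2:152736251-152737410, plus strand) was at 118, 111 and 130.3 CPM at day 0 and 76.8, 87.4, 88.9 and 56.8 CPM at day 3, a log2 fold change of -0.63 ± 0.14 (SE, adjusted p = 0.00148). It also fell in the controls, and the interaction was not called (adjusted p = 0.685). Id2 fell from 86.9, 81.5 and 103 to 31.2, 29.7, 30.0 and 47.4 CPM (log2 fold change -1.39 ± 0.18 SE, adjusted p = 2.08e-05). Its log2 fold change in the controls was -1.07 (adjusted p = 0.000196), and the interaction was not called (adjusted p = 0.432). Id3 rose from 159.5, 149 and 166 to 232, 252, 233 and 202 CPM (log2 fold change 0.54 ± 0.10 SE, adjusted p = 0.000535), where the controls fell by 0.27 (adjusted p = 0.0338), and the changes differed by 0.81 ± 0.14 (SE, adjusted p = 0.0026).

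Smad6, which blocks receptor-activated Smads, went from 59.5, 57.8 and 65.8 to 86.2, 104, 94.9 and 115 CPM in the cKO cultures (log2 fold change 0.71 ± 0.11 SE, adjusted p = 9.24e-05), and Bambi, a decoy receptor, from 11.1, 11.5 and 11.3 to 26.8, 29.0, 22.0 and 34.9 CPM (log2 fold change 1.32 ± 0.22 SE, adjusted p = 0.000215). Neither passed the test in the controls (adjusted p = 0.249 and 0.767), and their interactions were 0.87 (adjusted p = 0.00248) and 1.23 (adjusted p = 0.0159). Msx2, a homeobox target of BMP, went from 3.82, 3.31 and 3.98 to 10.2, 13.4, 10.5 and 35.9 CPM (log2 fold change 2.24 ± 0.44 SE, adjusted p = 0.000674, and 1.62 without replicate 4). Of 20 BMP response and feedback genes 10 rose and 4 fell, with a median of 0.50, against 4 and 6 in the controls, and the interaction was called higher for 5 and lower for 2.

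Among 18 BMP ligands, receptors and Smads, 7 rose and 4 fell (background 32.4% and 29.8%), with a median of 0.03. Gdf6 rose from 1.42, 1.52 and 2.37 to 16.5, 22.2, 31.8 and 5.48 CPM (log2 fold change 3.42 ± 0.57 SE, adjusted p = 0.000192). Gdf5, the ligand of the joint, fell from 43.4, 44.4 and 48.5 to 12, 8.44, 11.1 and 10.7 CPM (log2 fold change -2.11 ± 0.15 SE, adjusted p = 2.38e-07), and the cells' own Bmp2 transcript from 10.3, 10.2 and 12.5 to 3.49, 2.27, 2.5 and 7.61 CPM (log2 fold change -1.48 ± 0.31 SE, adjusted p = 0.00117). Bmp4 was 30.2, 34.3 and 32.7 CPM in day 3 replicates 1 to 3 and 179.9 CPM in replicate 4, against 21.9, 19 and 18.9 CPM at day 0. Its rise of 1.79 became 0.70 without replicate 4 (adjusted p = 0.0253), and the call was missed without cKO day 0 replicate 2 or 3 (adjusted p up to 0.0558). The motif GGCGCC, a GC-rich element that Smads of the BMP branch are known to bind, was in 6 of the 11 promoters matched from the BMP response list (54.5%) and in 11.9% of all promoters.

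**Figure D4:**
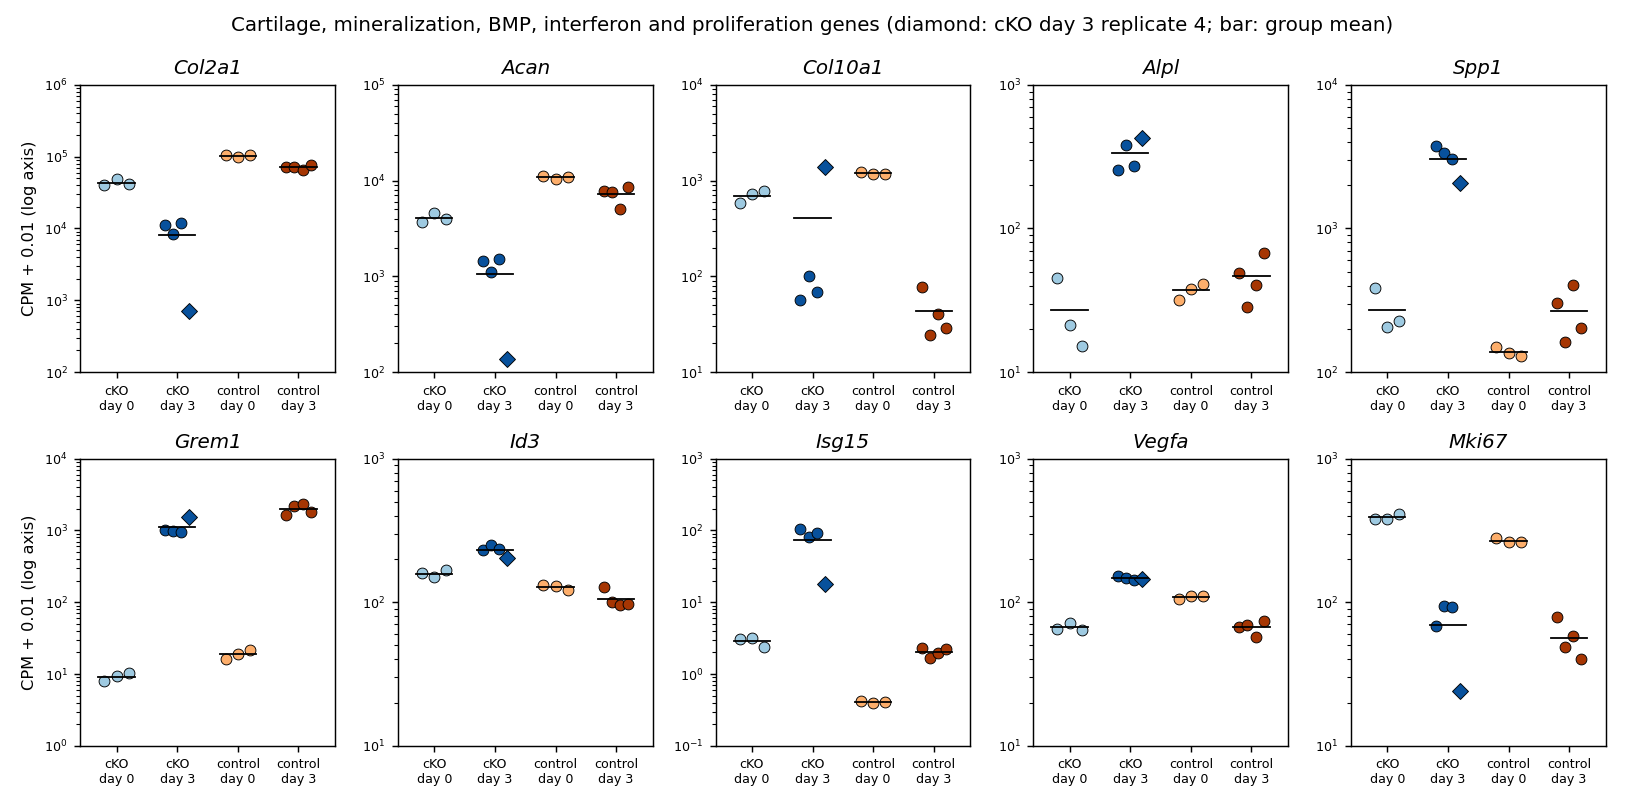
CPM plus 0.01 on log axes for 10 genes in the 14 cultures, with cKO in blue, control in orange, a bar at each group mean and a diamond for cKO day 3 replicate 4. Col2a1 and Acan are lower in every day 3 than in every day 0 cKO culture, Col10a1 is high in replicate 4 alone among the day 3 cKO cultures, and Alpl, Spp1, Grem1 and Isg15 are higher in every day 3 cKO culture than in any day 0 culture of either genotype.

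Interferon-stimulated genes are those that cells switch on when they sense viral or misplaced nucleic acid. Of 25 listed, 24 were tested and 21 rose and 1 fell in the cKO cultures, with a median log2 fold change of 3.77, and 22 rose without replicate 4, with a median of 4.06. In the controls 17 rose and 2 fell, with a median of 1.68. The interaction was called higher for 5 and lower for 1 with all libraries (background 9.94% and 6.89%). Without replicate 4 it was called higher for 16 and lower for 1 (background 2326 and 1725 of 14833 genes). The summed level of the list was 154, 147 and 146 CPM at day 0 and 1251, 1023, 1144 and 399.6 CPM at day 3 in the cKO cultures, and 73.9, 81.0 and 78.5 and 188, 200.4, 201 and 177 CPM in the controls. Every day 3 cKO culture lay above every control culture, and replicate 4 was the lowest of the 4.

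The promoters of Isg15, a ubiquitin-like protein, and Ifit1, a sensor of foreign RNA ends, show a pattern of GAAA, any 2 bases and GAAA again, which interferon regulatory factors are known to bind, in front of genes that rose. The sequences are the 200 bases before the RefSeq gene start (GRCm38.p6), 5′ to 3′ on the gene's strand, with the pattern on either strand in capitals. Isg15 lies at chr4:156200819-156201018 on the minus strand and Ifit1 at chr19:34640689-34640888 on the plus strand.
Isg15: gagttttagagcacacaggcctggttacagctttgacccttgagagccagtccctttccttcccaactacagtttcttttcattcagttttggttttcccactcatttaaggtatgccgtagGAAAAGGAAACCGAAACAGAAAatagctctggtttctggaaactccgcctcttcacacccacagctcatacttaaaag
Ifit1: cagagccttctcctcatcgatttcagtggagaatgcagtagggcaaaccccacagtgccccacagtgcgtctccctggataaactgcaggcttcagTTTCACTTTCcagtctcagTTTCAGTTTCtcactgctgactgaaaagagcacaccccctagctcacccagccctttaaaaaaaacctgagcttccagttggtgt

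In Isg15 3 overlapping matches begin 78 to 66 bases before the start, and in Ifit1 2 matches begin 104 and 85 bases before it. The pattern was found in 11 of 20 promoters of the interferon list (55%) and in 3.44% of all promoters of the same length. It was chosen after the values were seen, and it says nothing about which factor was bound.

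Isg15 was at 3.03, 3.12 and 2.41 CPM at day 0 and 104, 81.3, 92.9 and 18.0 CPM at day 3 in the cKO cultures, a log2 fold change of 4.70 ± 0.48 (SE, adjusted p = 3.78e-06), and Ifit1 at 1.27, 0.873 and 0.718 and 96.6, 76.0, 79.6 and 12.7 CPM (log2 fold change 6.12 ± 0.62 SE, adjusted p = 3.54e-06). Oasl2 (ENSMUSG00000029561.17, GRCm38 chr5:114896936-114912234, plus strand), an antiviral protein related to the oligoadenylate synthetases, rose most in the list, from 0.0961, 0.0919 and 0.213 to 41.7, 36.8, 44.5 and 6.11 CPM (log2 fold change 7.83 ± 0.73 SE, adjusted p = 1.78e-06). Rtp4, another interferon target, went from 1.42, 1.29 and 1.01 to 61.3, 54.4, 57.9 and 11.9 CPM (log2 fold change 5.23 ± 0.51 SE, adjusted p = 2.6e-06). In each of them replicate 4 was the lowest day 3 culture and still above day 0.

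Isg15 also rose in the controls, from 0.415, 0.38 and 0.393 to 2.26, 1.68, 1.98 and 2.24 CPM, and the difference between genotypes was 2.35 ± 0.79 (SE, adjusted p = 0.059), or 2.68 without replicate 4 (adjusted p = 7.58e-06). Irf7, a factor that amplifies the interferon response, went from 1.32, 1.47 and 1.44 to 34.4, 32.2, 33.7 and 9.8 CPM (log2 fold change 4.28 ± 0.39 SE, adjusted p = 1.55e-06). Ifit2 was the member that fell, from 25.1, 25.6 and 26.7 to 18.1, 17.9, 16.1 and 17.0 CPM (log2 fold change -0.58 ± 0.08 SE, adjusted p = 2.84e-05). Leukocyte and macrophage markers, 7 genes, summed to 7.28, 7.67 and 6.62 CPM at day 0 and 11, 12.2, 11.7 and 20.5 CPM at day 3 in the cKO cultures, and Ptprc had at most 42 counts in any cKO library. Replicate 4 had the highest of these sums and the lowest interferon sum of the day 3 cKO cultures. The part of such cells in the interferon result was not tested.

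Of 12 inflammatory genes tested, 9 rose and none fell (background 32.4% and 29.8%), with a median of 2.12, against 3 and 2 in the controls. Listed were 15, of which Il6, Il1b and Nos2 had at most 5 counts in any cKO library and were below the filter. C3, the central complement component, went from 3.77, 3.72 and 3.22 to 162, 95, 117 and 48.1 CPM (log2 fold change 4.89 ± 0.39 SE, adjusted p = 5.01e-07) with an interaction of 2.70 ± 0.53 (SE, adjusted p = 0.00502). Ccl7, a monocyte chemokine, went from 0.817, 0.85 and 0.64 to 17.6, 18.5, 13.6 and 20.4 CPM (log2 fold change 4.51 ± 0.43 SE, adjusted p = 2.24e-06) with an interaction of 4.28 ± 0.73 (SE, adjusted p = 0.00203). Saa3, an acute-phase protein, went from 4.04, 4.2 and 3.1 to 79.6, 29.4, 34.2 and 12.7 CPM (log2 fold change 3.37 ± 0.47 SE, adjusted p = 4.98e-05, and 2.72 without day 3 replicate 1), and it was at 1.88, 2.01 and 1.78 and 0.548, 0.815, 0.721 and 1.06 CPM in the controls. Of the 12 interactions 6 were called higher and none lower.

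**Figure D5:**
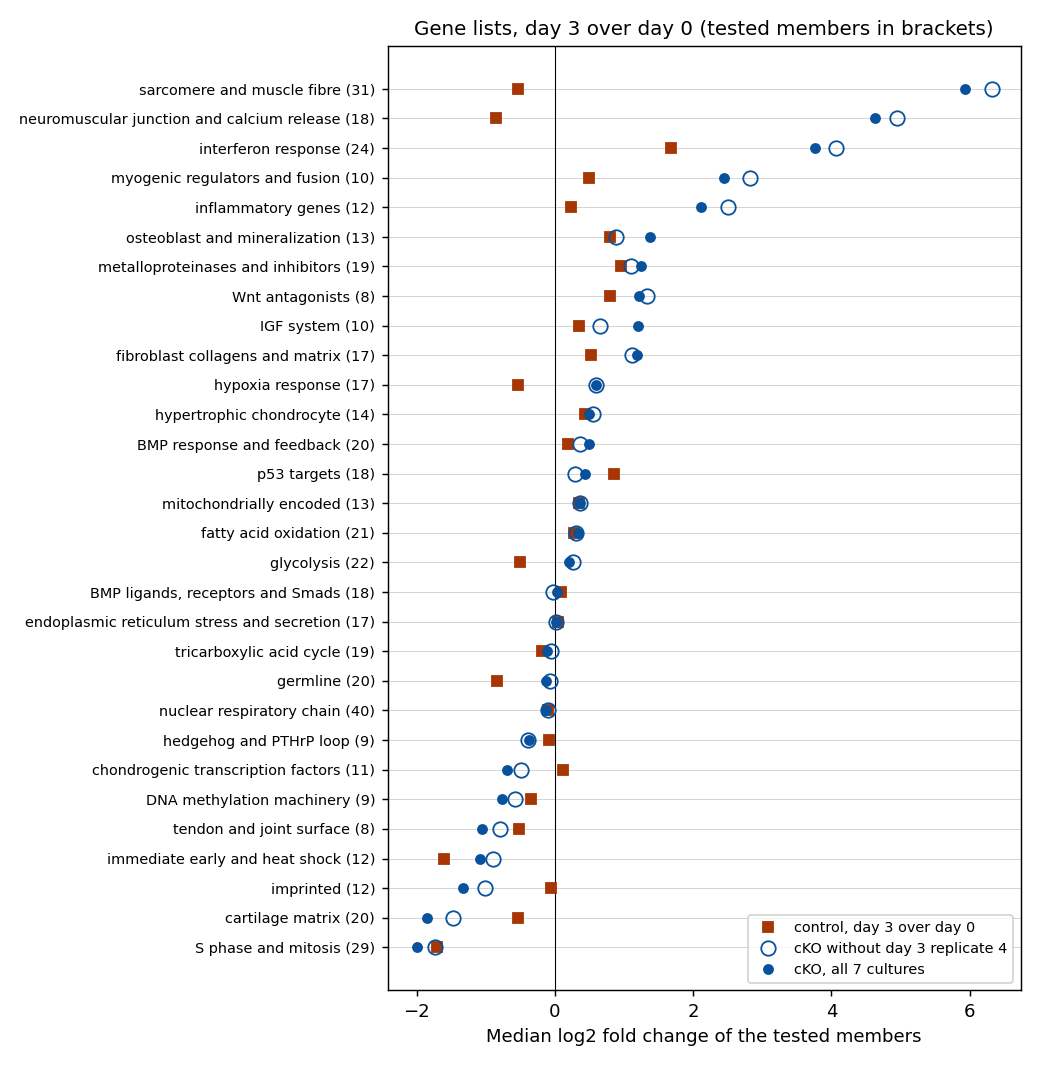
Median log2 fold change, day 3 over day 0, of the tested members of 30 gene lists, as filled circles for the 7 cKO cultures, open circles without cKO day 3 replicate 4 and squares for the controls. The muscle lists lie at 2.44 to 5.93 in the cKO and at -0.85 to 0.49 in the control cultures, while the S phase and mitosis list lies at -2.0 and -1.7.

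Of 29 S phase and mitosis genes 28 fell and none rose in the cKO cultures, with a median of -2.0, and 26 fell in the controls, with a median of -1.7. Mki67, the proliferation antigen, went from 381, 378 and 412 to 68.2, 93.8, 93.1 and 24.2 CPM (log2 fold change -2.48 ± 0.35 SE, adjusted p = 4.87e-05) and Ccna2, cyclin A, from 131, 125 and 135 to 22.9, 31.6, 32.9 and 8.42 CPM (log2 fold change -2.44 ± 0.35 SE, adjusted p = 5.34e-05). For Mki67 and Ccna2 replicate 4 was the lowest of the 7 cKO cultures. The remaining gene, Rrm2, a subunit of ribonucleotide reductase, was at 192, 165 and 221 and 98.4, 142, 127 and 221 CPM (adjusted p = 0.222), and it was called lower without replicate 4 (-0.65, adjusted p = 0.0157). A difference between genotypes was called for 1 of the 29.

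Of 18 targets of p53, 11 rose and 4 fell in the cKO cultures (background 32.4% and 29.8%) and 14 rose and 3 fell in the controls. The interaction was called lower for 9 (background 6.89%) and higher for none. Cdkn1a, the p21 inhibitor of cyclin-dependent kinases, was at 245, 234 and 263 CPM at day 0 and 513, 522, 527 and 571 CPM at day 3 in the cKO cultures, and at 126, 119 and 125 and 627, 524, 506 and 573 CPM in the controls. The day 3 levels of the genotypes overlapped, and the day 0 level was higher in the cKO cultures. The changes of Cdkn1a differed by -1.07 ± 0.11 (SE, adjusted p = 0.000104). Trp53inp1, a p53 cofactor, showed the same order, from 47.7, 47.4 and 43.1 to 165, 159, 160.1 and 149.8 CPM in the cKO and from 14.6, 15.4 and 15.4 to 112, 137, 163 and 126 CPM in the control cultures, with an interaction of -1.37 ± 0.14 (SE, adjusted p = 0.000104). Perp, a p53 target of cell junctions, fell from 16.8, 16.6 and 21.6 to 6.58, 6.96, 5.9 and 9.8 CPM (log2 fold change -1.33 ± 0.26 SE, adjusted p = 0.00066). It fell in the controls as well (adjusted p = 0.00576), and its interaction was not called (adjusted p = 0.597).

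Of 22 glycolysis genes 7 rose and 5 fell in the cKO cultures (background 32.4% and 29.8%), with a median of 0.20, and 1 rose and 11 fell in the controls, with a median of -0.50. The interaction was called higher for 11 (background 9.94%) and lower for none, and higher for 19 without replicate 4 (background 2326 of 14833 genes). Aldoa, aldolase, went from 406, 383 and 381 to 763, 726, 845 and 559 CPM (log2 fold change 0.89 ± 0.12 SE, adjusted p = 4.79e-05) with an interaction of 1.15 ± 0.17 (SE, adjusted p = 0.00101). Pfkfb3, which makes the activator of phosphofructokinase, went from 40.8, 37.4 and 34.9 to 106, 81.4, 92.8 and 46.6 CPM (log2 fold change 1.12 ± 0.22 SE, adjusted p = 0.000655) with an interaction of 1.45 ± 0.30 (SE, adjusted p = 0.00646), and Pfkm, muscle phosphofructokinase, from 34.5, 36.6 and 30.3 to 76.9, 82.4, 86.9 and 60.4 CPM (log2 fold change 1.18 ± 0.11 SE, adjusted p = 1.44e-06).

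Slc16a3, the lactate exporter, went from 46.2, 35.4 and 29.4 to 94.3, 72.0, 89.0 and 38.1 CPM (log2 fold change 0.99 ± 0.29 SE, adjusted p = 0.00962) in the cKO and from 49.0, 58.9 and 57.0 to 10.6, 16.4, 15.2 and 23.1 CPM in the control cultures, with an interaction of 2.74 ± 0.41 (SE, adjusted p = 0.00103). Gapdh, often used as a reference gene, was 1108, 1051 and 1118 and 998, 1059, 1166 and 921 CPM in the cKO cultures (adjusted p = 0.567) and fell in the controls by 0.96 (adjusted p = 1.07e-05). Slc2a1, a glucose transporter, and Hk2, a hexokinase, fell in both genotypes, and less in the cKO cultures, with interactions of 0.89 ± 0.22 (SE, adjusted p = 0.0161) and 0.96 ± 0.15 (SE, adjusted p = 0.00124). In replicate 4 Aldoa, Pfkfb3 and Slc16a3 were the lowest of the day 3 cultures.

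Of 17 hypoxia response genes 9 rose and 4 fell in the cKO cultures (background 32.4% and 29.8%) and 2 rose and 8 fell in the controls. The interaction was called higher for 8 (background 9.94%) and lower for none. Bnip3, which marks mitochondria for removal, went from 46.2, 43.6 and 33.7 to 124, 99.5, 120.1 and 58.2 CPM (log2 fold change 1.29 ± 0.23 SE, adjusted p = 0.00033) with an interaction of 1.81 ± 0.32 (SE, adjusted p = 0.0024). Egln3, an oxygen-sensing prolyl hydroxylase, went from 5.43, 5.4 and 4.93 to 17.0, 17.6, 20.0 and 8.99 CPM (log2 fold change 1.60 ± 0.23 SE, adjusted p = 6.28e-05) with an interaction of 2.21 ± 0.34 (SE, adjusted p = 0.0011).

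Of 13 mitochondrially encoded genes 9 rose and 1 fell, with a median of 0.36, and mt-Co1, a subunit of cytochrome oxidase, went from 4511, 4467 and 5034 to 6255, 6598, 6486 and 6922 CPM (log2 fold change 0.49 ± 0.10 SE, adjusted p = 0.000651). The fall was missed without cKO day 0 replicate 3. The controls had 8 rise and 1 fall, and no interaction was called among the 13. Of 40 nuclear respiratory chain genes 8 rose and 15 fell (background 32.4% and 29.8%, controls 7 and 14), and of 19 tricarboxylic acid cycle genes 3 rose and 9 fell (controls 1 and 11). Of the latter list 1 rose without cKO day 0 replicate 1 or 3 or day 3 replicate 2, and 5 rose without day 3 replicate 4. Of 21 fatty acid oxidation genes 11 rose and 1 fell (controls 12 and 2), with 0 falls without cKO day 0 replicate 1 or 2 or day 3 replicate 4 and 2 without day 3 replicate 2. Cpt1a, which brings fatty acids into mitochondria, went from 17.4, 17.7 and 21.5 to 68.0, 61.1, 56.9 and 67.6 CPM (log2 fold change 1.75 ± 0.17 SE, adjusted p = 2.84e-06), and Acadl, a long-chain dehydrogenase, from 33.5, 32.5 and 31.9 to 63.6, 68.2, 65.0 and 78.6 CPM (log2 fold change 1.08 ± 0.08 SE, adjusted p = 1.93e-07) with an interaction of 0.88 ± 0.11 (SE, adjusted p = 0.00026). Cpt1a also rose in the controls, by 1.45 (adjusted p = 1.66e-05), and its interaction was not called (adjusted p = 0.438).

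Of 17 fibroblast collagen and matrix genes, 10 rose and 2 fell in the cKO cultures (background 32.4% and 29.8%), with a median of 1.19, and 13 rose and 3 fell without replicate 4. In the controls 9 rose and 4 fell, with a median of 0.52. Col1a1, type I collagen, went from 1484, 1327 and 1172 to 6560, 7077, 6460 and 8552 CPM (log2 fold change 2.43 ± 0.20 SE, adjusted p = 6.88e-07) with an interaction of 1.5 ± 0.26 (SE, adjusted p = 0.00247). Postn, periostin, went from 9.15, 7.19 and 4.66 to 206, 285, 242 and 281 CPM (log2 fold change 5.18 ± 0.40 SE, adjusted p = 3.67e-07) with an interaction of 2.19 ± 0.46 (SE, adjusted p = 0.00681). In the controls Col1a1 was at 2789, 2348 and 1567 and 4994, 4153, 4266 and 3609 CPM.

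Lum, lumican, went from 59.3, 58.7 and 45.9 to 525, 534, 556 and 54.0 CPM (log2 fold change 2.93 ± 0.56 SE, adjusted p = 0.000536) and Col14a1, a collagen bound to fibrils, from 3.34, 4.69 and 2.93 to 142, 139, 114 and 19 CPM (log2 fold change 4.83 ± 0.60 SE, adjusted p = 1.88e-05). In both, replicates 1 to 3 were high and replicate 4 low, for Lum within the day 0 range. Col14a1 also rose in the controls, by 4.66 (adjusted p = 2.27e-05), and its interaction was not called (adjusted p = 0.908). Thy1, a surface protein of fibroblasts, fell from 10.4, 9.72 and 11 to 2.08, 2.27, 2.45 and 1.5 CPM (log2 fold change -2.32 ± 0.17 SE, adjusted p = 2.33e-07). The 6 fibroblast markers summed to 2668, 2695 and 2393 CPM at day 0 and 10430, 10270, 9641 and 9895 CPM at day 3 in the cKO cultures. In the controls their sum was also higher at day 3, at 4927, 4377 and 3357 and 7954, 8161, 8753 and 6911 CPM. Prrx1, the mesenchymal factor whose enhancer drives the Cre, rose from 70.2, 70.3 and 67.4 to 295, 305, 269 and 349 CPM (log2 fold change 2.13 ± 0.11 SE, adjusted p = 2.32e-08), and in the controls from 87.6, 87.1 and 81.2 to 228, 167, 203 and 175 CPM.

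Of 19 metalloproteinases and their inhibitors 11 rose and 4 fell (background 32.4% and 29.8%), and 2 fell without cKO day 0 replicate 2. Mmp19 rose in both genotypes, from 1.75, 1.42 and 1.36 to 33.4, 30.0, 30.1 and 35.5 CPM in the cKO and from 2.1, 1.63 and 1.85 to 39.6, 41.5, 36.4 and 35.6 CPM in the control cultures, with an interaction of 0.05 ± 0.16 (SE, adjusted p = 0.866) that was not called. Mmp10, stromelysin-2, rested on replicate 4, with 1.18, 0.494 and 0.887 CPM in the other 3 day 3 cultures and 87.6 CPM in it. Its log2 fold change of 6.18 ± 1.97 (SE, adjusted p = 0.0196) was 1.46 without replicate 4 (adjusted p = 0.0244), and it missed the threshold without any 1 of the day 0 cKO libraries (adjusted p up to 0.0661). Replicate 4 also stood apart in Myh11, Acta2 and Tagln, contractile genes of smooth muscle. Acta2 was 407, 499 and 423 and 1812 CPM, Tagln 81.3, 105 and 83.7 and 549 CPM, and Myh11 0.563, 0.395 and 0.313 and 16.8 CPM, in replicates 1 to 3 and in replicate 4.

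Without replicate 4 Acta2 and Tagln were called lower, at -1.17 (adjusted p = 5.24e-07) and -1.69 (adjusted p = 1.71e-07), and neither was called with all libraries in the same fit. Myh11 was called higher with it (log2 fold change 3.00 ± 1.16 SE, adjusted p = 0.0382) and had the opposite sign without it (-0.40, adjusted p = 0.325). The call of Myh11 was also missed without any 1 of the day 0 cKO libraries (adjusted p 0.0806 to 0.104) and without control day 0 replicate 2 (0.0503). Ctsk, cathepsin K of osteoclasts and mesenchymal cells, was 95, 109 and 92.0 and 349.8 CPM, and 74.1, 88.7 and 84.7 CPM at day 0. The rise of Ctsk (log2 fold change 0.97 ± 0.39 SE, adjusted p = 0.043) was 0.26 without replicate 4 and was missed in 10 of the 14 fits that left out 1 library, those without any day 0 cKO or any control library, with adjusted p up to 0.119.

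Of 10 genes of the IGF system 6 rose and 1 fell (background 32.4% and 29.8%, controls 4 and 1). The fall in the cKO cultures was missed in 10 of the 14 fits that left out 1 library and was made without cKO day 3 replicate 3 or 4 or control day 3 replicate 1 or 4. Igfbp4, an IGF-binding protein, went from 116, 132 and 121 to 1254, 1423, 1295 and 1016 CPM (log2 fold change 3.34 ± 0.16 SE, adjusted p = 1.15e-08) with an interaction of 1.43 ± 0.20 (SE, adjusted p = 0.000565). Igf1, insulin-like growth factor 1, went from 1.13, 0.735 and 1.49 to 21.4, 20.7, 16.4 and 145 CPM (log2 fold change 5.49 ± 0.85 SE, adjusted p = 0.00011), and its log2 fold change was 4.11 without replicate 4. In the controls Igf1 rose by 3.27 (adjusted p = 0.0029), and its interaction was not called (adjusted p = 0.172). Of 8 tested Wnt antagonists 4 rose and 2 fell (controls also 4 and 2), or 1 fell without cKO day 0 replicate 1 or 2 or day 3 replicate 2 or 4. Dkk3 went from 22.9, 27.5 and 11 to 781, 769.5, 729.8 and 681 CPM (log2 fold change 5.18 ± 0.39 SE, adjusted p = 3.29e-07) with an interaction of 2.64 ± 0.45 (SE, adjusted p = 0.0022).

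Of 9 genes of the methylation machinery 5 fell and 1 rose in the cKO cultures (background 29.8% and 32.4%), and 6 fell and 1 rose in the controls. Uhrf1, which guides Dnmt1 to newly copied DNA, went from 83.0, 75.3 and 79.0 to 19, 23.5, 26.4 and 5.94 CPM (log2 fold change -2.08 ± 0.34 SE, adjusted p = 0.000186), with an interaction of -0.01 ± 0.51 (SE, adjusted p = 1.0). Dnmt3a, a de novo methyltransferase, fell from 96.1, 99.1 and 95.1 to 50.9, 49.8, 48.1 and 64.1 CPM (log2 fold change -0.86 ± 0.11 SE, adjusted p = 2.94e-05) with an interaction of -0.78 ± 0.16 (SE, adjusted p = 0.00625). Dnmt3l, its germ cell cofactor, was the member that rose, from 0.841, 0.804 and 0.912 to 2.25, 1.93, 1.83 and 2.83 CPM (log2 fold change 1.36 ± 0.26 SE, adjusted p = 0.000594), and it fell in the controls by 4.66 (adjusted p = 1.4e-05). There it went from 0.546, 0.465 and 0.462 to 0, 0.0543, 0 and 0 CPM, so the fitted sizes of this fall and of its interaction are imprecise.

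Germline genes, which methylation is known to keep silent in body cells, summed to 303, 270.3 and 282 CPM at day 0 and 277, 297, 264 and 282 CPM at day 3 in the cKO cultures, and to 5.4, 6.36 and 5.84 and 8.5, 7.49, 6.97 and 7.39 CPM in the controls. Of 20 tested 4 rose and 5 fell, shares below the background of 32.4% and 29.8%, with a median of -0.13. Without cKO day 0 replicate 1 2 fell, 3 without day 0 replicate 3 and 7 without day 3 replicate 4. Tex19.1, a repressor of mobile elements in germ cells, was at 55.9, 52.4 and 58.1 and 43.9, 49.0, 41.1 and 46.0 CPM in the cKO cultures and at most 0.0685 CPM in any control. Its log2 fold change of -0.30 ± 0.10 (SE, adjusted p = 0.0214) missed the threshold without cKO day 0 replicate 1 or 3 (adjusted p up to 0.0897). Mov10l1, a helicase of the piRNA pathway, rose from 12.6, 10.9 and 10.7 to 33.9, 38.1, 35.0 and 33.2 CPM (log2 fold change 1.62 ± 0.10 SE, adjusted p = 4.66e-07), and Dpep3 from 8.84, 6.84 and 6.83 to 39.1, 30.8, 31.7 and 30.9 CPM (log2 fold change 2.14 ± 0.18 SE, adjusted p = 9.32e-07). In the controls Mov10l1 was at most 0.0634 CPM at day 0 and 0 at day 3, so the fitted size of its interaction depends on how a group at 0 is treated.

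Of 12 imprinted genes tested 9 fell and 1 rose (2 without day 3 replicate 4), with a median of -1.33, against 5 and 2 in the controls, with a median of -0.05. Of the 12 interactions 5 were called lower and 1 higher. Dlk1 went from 476, 605 and 553 to 32.6, 25.1, 36.0 and 7.03 CPM (log2 fold change -4.43 ± 0.39 SE, adjusted p = 1.17e-06) and fell in the controls by 3.72 (adjusted p = 4e-06). Plagl1, a zinc finger regulator of growth, went from 1435, 1623 and 1633 to 525, 443, 527 and 373 CPM (log2 fold change -1.74 ± 0.13 SE, adjusted p = 2.96e-07) with an interaction of -1.38 ± 0.18 (SE, adjusted p = 0.000514). Peg3, another zinc finger protein, went from 1816, 2083 and 1805 to 751, 672, 816 and 297 CPM (log2 fold change -1.58 ± 0.25 SE, adjusted p = 0.000142) with an interaction of -1.59 ± 0.36 (SE, adjusted p = 0.0104).

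The genes that fell most by the same rule were Krt17 and Krt7 (epithelial keratins), F2rl1 (a protease-activated receptor), Lama3 (a laminin chain) and Klk10 (a secreted serine protease). Krt17 went from 45.4, 48.4 and 77.7 to 0.9, 0.79, 0.835 and 0.519 CPM (log2 fold change -6.22 ± 0.26 SE, adjusted p = 4.06e-09), Klk10 from 183, 191 and 229.7 to 9.06, 5.38, 9.34 and 1.67 CPM (log2 fold change -4.98 ± 0.40 SE, adjusted p = 5.25e-07) and Krt7 from 27.8, 34.6 and 46.2 to 1.01, 0.543, 0.731 and 1.33 CPM (log2 fold change -5.34 ± 0.29 SE, adjusted p = 2.46e-08). F2rl1 went from 16.8, 17.6 and 20.7 to 0.169, 0.494, 0.261 and 0.461 CPM, and Lama3 from 16.4, 18.5 and 17.4 to 0.169, 0.346, 0.626 and 0.346 CPM. No day 3 culture overlapped day 0 in any of them, which the rule requires and which is no further result. All 5 fell in the controls too, and of the 5 interactions only that of Lama3 was called, at -2.15 ± 0.39 (SE, adjusted p = 0.00308), with that of Krt7 called as well without replicate 4 (-1.48, adjusted p = 0.0208). The summed level of 4 keratinocyte markers was 2.93 to 3.22 CPM at day 0 and 3.00 to 3.88 CPM at day 3 in the cKO cultures.

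Immediate early genes answer serum and handling within minutes. Of 12 immediate early and heat shock genes 7 fell and 1 rose (2 without day 3 replicate 4) in the cKO cultures, and 8 fell and 3 rose in the controls. Fos went from 33.9, 29.5 and 25.8 to 7.26, 8.59, 7.62 and 7.38 CPM (log2 fold change -1.94 ± 0.23 SE, adjusted p = 1.26e-05) in the cKO and from 90.0, 87.7 and 78.9 to 2.19, 1.9, 5.34 and 2.04 CPM in the control cultures, with an interaction of 2.95 ± 0.35 (SE, adjusted p = 0.000234). Dusp1, a phosphatase that ends such signals, went from 370.2, 366 and 419 to 60.7, 67.9, 65.2 and 173 CPM (log2 fold change -2.07 ± 0.30 SE, adjusted p = 6.79e-05) with an interaction of 2.25 ± 0.45 (SE, adjusted p = 0.00531).

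Over all genes the interaction was called higher for 1482 and lower for 1027, 9.94% and 6.89% of those tested, so that 59.1% of the calls were higher. With upper quartile scaling the split was 1207 higher and 1412 lower, or 46.1% higher, and without replicate 4 it was 2326 and 1725. The genes with the largest negative interaction were Cldn1 (a tight junction protein), Lrrn3 (a leucine-rich neuronal membrane protein), Cd34 (a surface sialomucin), Dlx1 (a homeobox factor) and Dpep1 (a dipeptidase). Cldn1 fell from 5.65, 4.46 and 5.14 to 0.9, 0.839, 0.991 and 2.19 CPM in the cKO cultures and rose from 0.524, 0.549 and 0.554 to 1.17, 1.85, 3.18 and 1.25 CPM in the controls. Cd34 fell from 11.6, 8.11 and 11.6 to 2.64, 2.22, 3.5 and 1.61 CPM in the cKO cultures and rose from 4.87, 3.0 and 2.5 to 3.56, 15.0, 18.6 and 7.58 CPM in the controls.

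Lrrn3 rose in both, from 2.84, 3.17 and 3.92 to 8.72, 13.7, 16.9 and 4.55 CPM in the cKO and from 1.14, 1.18 and 1.06 to 38.0, 57.0, 72.5 and 42.5 CPM in the control cultures. Dlx1 went from 2.35, 1.38 and 3.18 to 5.01, 6.17, 4.8 and 6.69 CPM in the cKO and from 0.131, 0.148 and 0.139 to 8.91, 3.42, 3.3 and 2.64 CPM in the control cultures, and its cKO rise was missed without cKO day 0 replicate 2 (adjusted p = 0.0505). Dpep1 was already at 13.0, 16.0 and 12.3 CPM in the cKO cultures at day 0, with 14.4, 20.0, 18.4 and 11.9 CPM at day 3 (adjusted p = 0.495), where the controls went from 0.0874, 0.0423 and 0 to 1.17, 0.815, 0.3 and 0.396 CPM. The interactions of these 5 genes were -3.83, -3.81, -3.76, -3.69 and -3.56 in the order named at the start, with adjusted p of 0.000604, 0.000568, 0.00224, 0.00196 and 0.00508.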

How the data were processed

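The authors deposited expected counts per gene in 2 tables, 1 for day 0 and 1 for day 3, from directional libraries of total RNA, with GRCm38 as the genome build per the submitters' processing notes. The aligner and the counter are not given in the sources used here. The expected counts were rounded to whole numbers, joined by gene identifier and tested with edgeR 4.0.16 (R 4.3.3): TMM scaling, the default filter on low counts (minimum count 10, minimum total 15) and 1 quasi-likelihood fit over 14 cultures in 4 groups, without a replicate block because same-numbered cultures were not shown to be paired. Of 34866 identifiers 34582 had a gene name. Alternatives were DESeq2 1.42.0, other scalings, no filter, fits within 1 genotype, thinned day 0 counts, a replicate block, and leaving out each library. Counting intervals are at 95% and cover counting error only. The remaining samples of the series were not used here.

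The members and gene lists were chosen with earlier results of these data known. Named by rule were up to 5 genes per direction with the largest change or interaction (called with and without replicate 4, mean log2 CPM at least 1, and for changes no overlap), up to 5 called members per list, members whose call rests on replicate 4, Dnmt1, Id1, Col2a1, Col10a1 and Myog, and the 5 genes in which replicate 4 stood furthest apart. Other named genes were chosen after their values were seen: Myod1, Myom1, Matn4, Fmod, Prelp, Sox9, Ihh, Id2, Id3, Smad6, Bambi, Nog, Bmp2, Isg15, Irf7, Ifit2, Rrm2, Cdkn1a, Hk2, Aldoa, Gapdh, Tex19.1, Ryr1, Acta2, Tagln, Prrx1, Ddx3y, the untested list members Pax7, Myf5, Myf6, Vgll2, Il6, Il1b and Nos2, and the markers Hbb-bs and Hba-a1. Some results that the rule names are not reported here.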

Additional observations from a re-analysis of the deposited data

Results flagged for a closer look

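In groups of 4 cultures the highest or lowest culture was set against the other 3 by Dixon's criterion, which chance passes in about 1 of 20 groups. The criterion was taken on CPM and not on a log scale, so a high culture passes it more readily than a low one. cKO day 3 replicate 4 was apart on the high side for 13 of the 127 named genes and on the low side for 4. On the log scale over all genes it lay more than 1 unit above the others for 541 and below for 832. Some of these genes were named because replicate 4 changed their call or after their values were seen, so the count cannot be read against the rate that chance gives. It held 2.19 CPM of Cldn1 (next 0.991), 1390 CPM of Col10a1 (next 101), 47.4 CPM of Id2 (next 31.2), 1560 CPM of Grem1 (next 1020), 87.6 CPM of Mmp10 (next 1.18), 145 CPM of Igf1 (next 21.4), 173 CPM of Dusp1 (next 67.9), 16.8 CPM of Myh11 (next 0.563), 1810 CPM of Acta2 (next 499), 549 CPM of Tagln (next 105), 180 CPM of Bmp4 (next 34.3), 35.9 CPM of Msx2 (next 13.4) and 350 CPM of Ctsk (next 109). On the low side it held 0.461 CPM of Ihh (next 1.28), 54 CPM of Lum (next 525), 9.8 CPM of Irf7 (next 32.2) and 11.9 CPM of Rtp4 (next 54.4). Replicate 3 was apart for Bglap2, at 13.3 CPM against 7.88, and replicate 1 for Dpep3, at 39.1 CPM against 31.7.

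The change in the cKO cultures differed from that in the controls (edgeR's quasi-likelihood test of the interaction, Benjamini-Hochberg adjusted) for 59 named genes, each called also without replicate 4. Some of them were named because their interaction was called with and without replicate 4, or after their values were seen. The count of 59 therefore cannot be read against the 9.94% and 6.89% of all genes called higher and lower. The cKO change was the higher for 42, with log2 differences of Myh2 14.53, Myh1 12.33, Mybpc1 11.54, Xirp2 10.65, Trim72 9.29, Mylpf 9.20, Mymk 8.43, Acta1 7.41, Dnmt3l 6.02, Mov10l1 5.33, Ryr1 5.31, Saa3 4.63, Ccl7 4.28, Ibsp 4.20, Itga7 3.34, Alpl 3.30, Mmp13 3.23, Fos 2.95, Slc16a3 2.74, C3 2.70, Dkk3 2.64, Spp1 2.53, Lum 2.40, Dusp1 2.25, Egln3 2.21, Postn 2.19, Vegfa 1.83, Bnip3 1.81, Myom1 1.64, Col1a1 1.5, Pfkfb3 1.45, Igfbp4 1.43, Sp7 1.24, Bambi 1.23, Aldoa 1.15, Hk2 0.96, Prrx1 0.96, Slc2a1 0.89, Acadl 0.88, Gapdh 0.88, Smad6 0.87 and Id3 0.81. It was the lower for 17, with log2 differences of Ifit2 -0.35, Ptch1 -0.55, Dnmt3a -0.78, Cdkn1a -1.07, Nog -1.07, Sox8 -1.22, Trp53inp1 -1.37, Plagl1 -1.38, Thy1 -1.42, Peg3 -1.59, Lama3 -2.15, Chad -2.38, Dpep1 -3.56, Dlx1 -3.69, Cd34 -3.76, Lrrn3 -3.81 and Cldn1 -3.83.

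Of these, the call was missed in some of the 14 fits that left out 1 library: in 2 for Myh2, 3 for Myh1, 3 for Trim72, 4 for Nog, 5 for Mybpc1, 5 for Sox8, 7 for Mmp13, 8 for Sp7, 10 for Ifit2, 11 for Ptch1, 12 for Ibsp and 13 for Lum. The 47 others kept it in every such fit in which they were tested.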

How the results depend on the processing

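Under DESeq2, the other scalings, no filter, thinned day 0 counts, a fit within 1 genotype and the replicate block, the counts of genes called stayed within 1.5 times of those reported. In the cKO cultures these settings called 4332 to 5221 genes higher and 3948 to 4645 lower. Leaving out 1 library gave 8289 to 9962 calls in the cKO and 7438 to 9780 in the control cultures. For the difference between genotypes it gave 1591 to 4051 calls, 965 to 2326 of them higher and 618 to 1725 lower. The highest counts came without cKO day 3 replicate 4, and counts fell by over 1.5 times without cKO day 0 replicate 3 (965 higher, 639 lower) and without control day 0 replicates 1 (663 lower), 2 (973 higher, 618 lower) and 3 (647 lower). Without cKO day 3 replicate 4 the sign turned for Sox9 (0.26, and -0.31 to 0.26 over the 14 fits) and Myh11 (-0.40, and -0.40 to 3.39 over the 14 fits). The cause was not tested. Within 1 genotype, 6 cartilage matrix genes were called lower, and 8 named genes missed the call, with adjusted p of 0.0834 for Myod1, 0.0534 for Pax3, 0.0591 for Matn1, 0.0593 for C4b, 0.0507 for Mmp10, 0.133 for Myh11, 0.0657 for Bmp4 and 0.142 for Ctsk. With thinned day 0 counts Tex19.1 (0.0675) and Myh11 (0.0735) missed it.

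Correlations of same-numbered cultures' deviations were -0.229 to 0.157 over the 3 cKO pairs, so the numbers are not shown to pair cultures. The Ddx3y levels given under the other observations differed between the days for some of these numbers. With the replicate block 4630 genes were called higher and 4381 lower in the cKO cultures, 4081 and 4160 in the controls, and 1468 and 1022 in the interaction. With the replicate block Col10a1 (log2 fold change -2.68, adjusted p = 0.0251), Acta2 (-0.92, adjusted p = 0.0292) and Tagln (-1.35, adjusted p = 0.0234) were called lower, and Pax3 (adjusted p = 0.152), Myh11 (0.952), Bmp4 (0.111) and Ctsk (0.152) were not called. Replicate 4 exists at day 3 alone, in both genotypes. Its block term takes up part of the distance of cKO day 3 replicate 4, so these results do not weigh all libraries alike. Depth limits genes near 0 at day 0 or in the controls, where fitted sizes are imprecise, and 3 counts over a group is the smallest level used for a fold.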

Other observations

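The Y-linked gene Ddx3y, whose transcript comes from male cells, differed between libraries of the same group, in every group. It was at 0.192, 0.666 and 115 CPM in the cKO cultures at day 0 and 106, 0.148, 0 and 146 CPM at day 3, and at 0.131, 1.1 and 144 and 0.0685, 116, 120.3 and 0.198 CPM in the controls. Between the days Ddx3y differed in cKO replicates 1 (0.192 and 106 CPM) and 3 (115 and 0 CPM) and control replicate 2 (1.1 and 116 CPM). These numbers thus do not mark cultures of the same animals on both days. In cKO replicate 2 and control replicates 1 and 3 it was low or high on both days. The labels give no sex, and sex was not a term in any fit.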
